A study of Homo sapiens with 6 samples.

Results

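The genes described here are 9 genes of MHC class I antigen presentation: the heavy chains HLA-B, HLA-C and HLA-E, the light chain B2M, the peptide transporter genes TAP1 and TAP2, the tapasin gene TAPBP, and the immunoproteasome genes PSMB8 and PSMB9. They were taken by gene symbol and identifier, and all 9 were found among the 16327 genes of the count table and among the 16330 genes of the processed matrix. All 9 also passed the filter on low counts, which 12671 genes passed. RNA was sequenced from HN12, a human head and neck squamous carcinoma cell line, in 3 libraries from cells given the solvent DMSO (Control) and 3 from cells given CPI-613, each for 24 h. The compound CPI-613, also called devimistat, resembles lipoate and is aimed at mitochondrial 2-oxoacid dehydrogenases. All 6 libraries come from this 1 line in the same serum-containing medium, the labels name no interferon or lymphocyte in the cultures, and the dose of CPI-613 is not given in the sources used here. Nothing in the labels says that the replicates were separate cultures, so p-values reflect only how these libraries spread, which may be technical.

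Class I molecules show fragments of a cell's own proteins to CD8+ T cells. The proteasome cuts proteins into peptides, the TAP transporter moves peptides into the endoplasmic reticulum, and tapasin helps to load them onto a heavy chain paired with beta-2-microglobulin. Interferon gamma raises most of these genes in epithelial cells, and the subunits PSMB8, PSMB9 and PSMB10 then take the places of the constitutive subunits PSMB5, PSMB6 and PSMB7 in newly built proteasomes.

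The libraries held 11531942 to 15486513 counts. They differed in a way that followed base composition. The correlation, across genes, of a library's deviation from the mean with the GC content of the transcript ran from -0.60 to 0.72. Control ran from -0.49 to 0.23, so both ends lay in the CPI-613 group. CPI-613 replicate 3 stood apart with the highest value and with AT-rich genes low, and CPI-613 replicate 1 had the lowest, with AT-rich genes high. The fold changes of the 9 genes and of the other pathway genes named are therefore given a second time. There the trend of every library on GC content and on transcript length had been removed, called the GC and length offset. They are also given without CPI-613 replicate 3 where it changes the picture. The squamous keratin and adhesion markers, 8 of 8 in the table, summed to 5978 to 9101 CPM (counts scaled to library size with TMM) in Control and 3373 to 8535 CPM with CPI-613. Of these KRT5, a basal keratin singled out after its values were seen, lay lower in every CPI-613 library, as did 9.17% of all genes tested. It stood at 459 to 1553 CPM with CPI-613 against 2021 to 2568 CPM in Control. Its log2 fold change was -1.21 ± 0.42 (adjusted p = 0.226, edgeR), and -1.46 ± 0.28 with the offset (adjusted p = 0.0141, edgeR). All other squamous markers overlapped between the groups, and KRT17 and CDH1 had log2 fold changes above 0 with no offset (0.098 and 0.24). Of 12 leukocyte markers 8 were in the table. They summed to 45.9 to 63.9 CPM in Control and 40.7 to 78.7 CPM with CPI-613, 5 of them stayed under 1 CPM in every library, CD68 gave nearly all of the sum, and PTPRC (CD45) reached at most 0.155 CPM. The 4 endothelial markers summed to 1.30 to 2.74 CPM in Control and 0.214 to 0.615 CPM with CPI-613, and the 3 of 6 fibroblast markers in the table to 35.6 to 41.6 CPM and 31.0 to 41.4 CPM. Their part in the results was not tested.

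With CPI-613, the transcripts of the heavy chains, TAP1, TAP2 and TAPBP overlapped those of Control. B2M and PSMB9, 2 of the 9 genes, lay below Control in every CPI-613 library, as did 9.17% of all genes tested, and none of the 9 lay above it in every library, as did 11.8%. None of the 9 genes passed edgeR's quasi-likelihood test at an adjusted p of 0.05, where 3.18% of all genes tested were called, 1.94% higher and 1.24% lower. No class I gene had an unadjusted p under 0.05 by edgeR, against 14.4% of all genes tested, DESeq2 and limma-voom called none of them, and 1 gene, PSMB9, had an unadjusted p under 0.05 by DESeq2 (0.0496). After the GC and length offset 2 of the 9, PSMB8 and PSMB9, were called lower, where 5% of all genes were called lower and 6.61% higher. The median log2 fold change of the 9 genes was 0.078, beside 0.020 over all genes tested, and after the offset it was -0.065, beside 0.039. Fewer cells with a transcript and less transcript per cell cannot be told apart in bulk RNA.

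**Figure D1:**
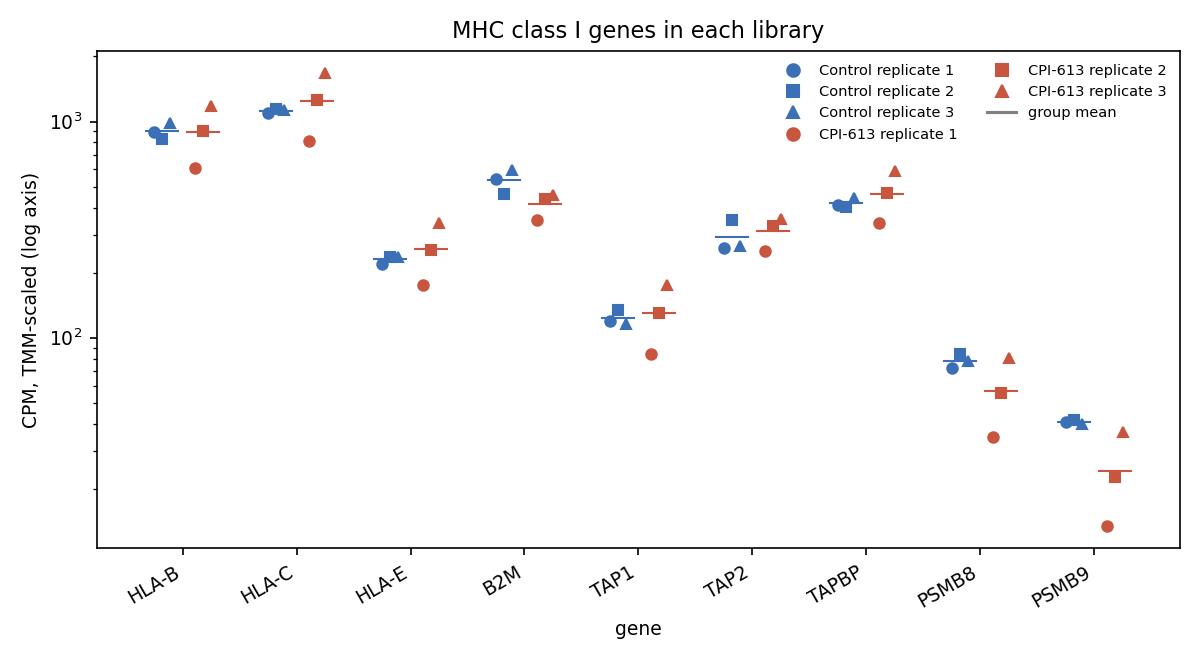
CPM (vertical log axis) of each of the 9 class I genes (horizontal axis) in the 3 Control libraries (blue) and the 3 CPI-613 libraries (red), with 1 marker shape per replicate number and a bar at the group mean. CPI-613 replicate 1 is the lowest and replicate 3 the highest of the CPI-613 libraries for all 9 genes, and for PSMB9 all CPI-613 libraries, 13.5 to 36.6 CPM, sit below the Control libraries, 39.9 to 41.4 CPM.

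The heavy chains present the peptide, HLA-B and HLA-C to CD8+ T cells and HLA-E mainly to NK cell receptors. HLA-B stood at 899, 829 and 981 CPM in Control replicates 1 to 3 and at 608, 907 and 1176 CPM in CPI-613 replicates 1 to 3. HLA-C stood at 1095, 1138 and 1125 CPM in Control and at 813, 1259 and 1671 CPM with CPI-613. For HLA-E the values were 219, 237 and 236 CPM in Control and 176.0, 255 and 340.0 CPM with CPI-613. In each of these genes CPI-613 replicate 1 lay below all Control libraries and CPI-613 replicate 3 above them, so the groups overlapped. The log2 fold changes by edgeR were -0.010 ± 0.26 (SE) for HLA-B, 0.16 ± 0.27 for HLA-C and 0.16 ± 0.25 for HLA-E, with adjusted p of 0.992, 0.850 and 0.839. After the GC and length offset they were -0.23, -0.065 and -0.013, with adjusted p of 0.431, 0.790 and 0.961. Since the sign of HLA-C and HLA-E changed with the offset and when libraries were scaled by total count only, no direction is given for them.

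Class I heavy chain genes are near copies of each other and vary between people, so reads can be split or lost where the line's alleles differ from the reference. In the reference transcripts 0% of the 100-base windows of HLA-B, 0.27% of those of HLA-C and 0.60% of those of HLA-E occur in another gene. Exons of HLA-B and HLA-C also share 35 bases on the same strand in the annotation. Their separate values are uncertain to the extent that the authors' counting split such reads, which is not given in the sources used here.

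B2M encodes beta-2-microglobulin, the light chain that every class I heavy chain needs to leave the endoplasmic reticulum. It stood at 545, 461 and 599.8 CPM in Control and at 350.0, 438 and 456 CPM with CPI-613. Every CPI-613 library lay below every Control library. The log2 fold change was -0.37 ± 0.19 (SE), with an adjusted p of 0.483 by edgeR. B2M has the lowest GC content of the 9 transcripts, 39.4%, taken from its longest annotated protein-coding transcript, which need not be the one counted. Its value depended on the GC and length offset, which removes both trends together, so their parts were not separated. After the offset the log2 fold change was 0.20 ± 0.36 (adjusted p = 0.764 by edgeR, and 0.104 to 0.999 over all alternatives) with overlapping groups. Offset values of 260, 490 and 840 CPM in the CPI-613 libraries spread much wider than those of 450 to 468 CPM in Control, so neither direction stood out from the libraries' own spread.

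The ratio of B2M to the sum of the 3 heavy chains was 0.246, 0.209 and 0.256 in Control and 0.219, 0.181 and 0.143 with CPI-613. The mean log2 ratio differed by -0.41, with p = 0.2 in a two-sided exact permutation test over libraries (adjusted p = 0.25 over 5 ratios), for which 3 against 3 libraries allow no p under 0.1. The highest CPI-613 library lay above the lowest Control library. After the offset the difference was 0.16 (p = 0.8 in the exact permutation test), of the opposite sign.

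TAP1 and TAP2 encode the partner chains of the peptide transporter. TAP1 stood at 119, 134 and 116 CPM in Control and at 84.2, 130.2 and 175 CPM with CPI-613. TAP2 stood at 261, 349 and 267 CPM in Control and at 252, 327 and 355 CPM with CPI-613. Both overlapped, with the CPI-613 libraries of TAP1 on either side of Control. The log2 fold changes were 0.078 ± 0.27 (SE) for TAP1 and 0.091 ± 0.21 for TAP2, with adjusted p of 0.923 and 0.881 by edgeR. With the offset they were -0.087 ± 0.13 and 0.060 ± 0.20, and each was negative when libraries were scaled by total count only. The ratio of TAP1 to TAP2 was 0.457, 0.382 and 0.434 in Control and 0.334, 0.398 and 0.492 with CPI-613 (p = 0.7 in the exact permutation test, and 0.7 adjusted over 5 ratios). TAP2 counts carry an added uncertainty, since 35.2% of the 100-base windows of its longest transcript occur in another annotated gene that shares its exons on the same strand.

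TAPBP encodes tapasin, which holds an empty class I molecule at the transporter. It stood at 413, 403 and 444 CPM in Control and at 339.7, 466 and 588 CPM with CPI-613. The groups overlapped, CPI-613 replicate 1 being the lowest of the 6 libraries and the other CPI-613 libraries above all of Control. The log2 fold change was 0.15 ± 0.23 (SE; adjusted p = 0.837, edgeR) and 0.0065 ± 0.13 after the offset (adjusted p = 0.980, edgeR; 0.229 to 0.999 over all alternatives).

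PSMB9 (LMP2) and PSMB8 (LMP7) are catalytic subunits of the immunoproteasome, the form whose cuts favour peptides that class I molecules bind. PSMB9 had 519, 533 and 522 counts in Control replicates 1 to 3 and 189, 295 and 472 in CPI-613 replicates 1 to 3. Scaled, these were 40.7, 41.4 and 39.9 CPM in Control and 13.5, 22.7 and 36.6 CPM with CPI-613. The Control libraries lay close together and above every CPI-613 library, with CPI-613 replicate 3 nearest to them. The log2 fold change was -0.75 ± 0.36 (SE), with an adjusted p of 0.424 by edgeR. After the GC and length offset it was -0.98 ± 0.16, a level 49.2% below Control, with an adjusted p of 0.00837 by edgeR (0.00747 to 0.903 over all alternatives).

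PSMB8 stood at 72.6, 84.3 and 78.1 CPM in Control and at 34.5, 55.6 and 80.5 CPM with CPI-613. In CPI-613 replicates 1 and 2 it was below every Control library, while CPI-613 replicate 3 lay among them. The log2 fold change was -0.46 ± 0.31 (SE; adjusted p = 0.619, edgeR). After the offset the CPI-613 libraries, at 44.7, 53.6 and 54.9 CPM, all lay below the Control libraries, at 81.3, 77.4 and 88.9 CPM. The log2 fold change was then -0.69 ± 0.13, a level 38.0% below Control, with an adjusted p of 0.0141 by edgeR (0.0141 to 0.999 over all alternatives). The log2 fold changes of PSMB8 and PSMB9 were below 0 under every alternative run.

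Single CPI-613 libraries weighed on both genes. Without CPI-613 replicate 3 and with no offset, the log2 fold change was -0.79 for PSMB8 and -1.17 for PSMB9, with adjusted p of 0.139 and 0.0548 by edgeR. Without CPI-613 replicate 1 it was nearer 0, at -0.20 for PSMB8 and -0.45 for PSMB9 (adjusted p = 0.541 and 0.256, edgeR). With the offset, the calls of PSMB8 and PSMB9 were kept without CPI-613 replicate 3 (adjusted p = 0.0166 and 0.00747, edgeR). Both calls were lost without Control replicate 1 (0.0691 and 0.0517) and without CPI-613 replicate 2 (0.0679 and 0.0517), and that of PSMB8 without Control replicate 3 (0.0817), where that of PSMB9 remained (0.0489). The sizes moved less, from -0.60 to -0.74 for PSMB8 and from -0.84 to -1.06 for PSMB9 over these offset fits.

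**Figure D2:**
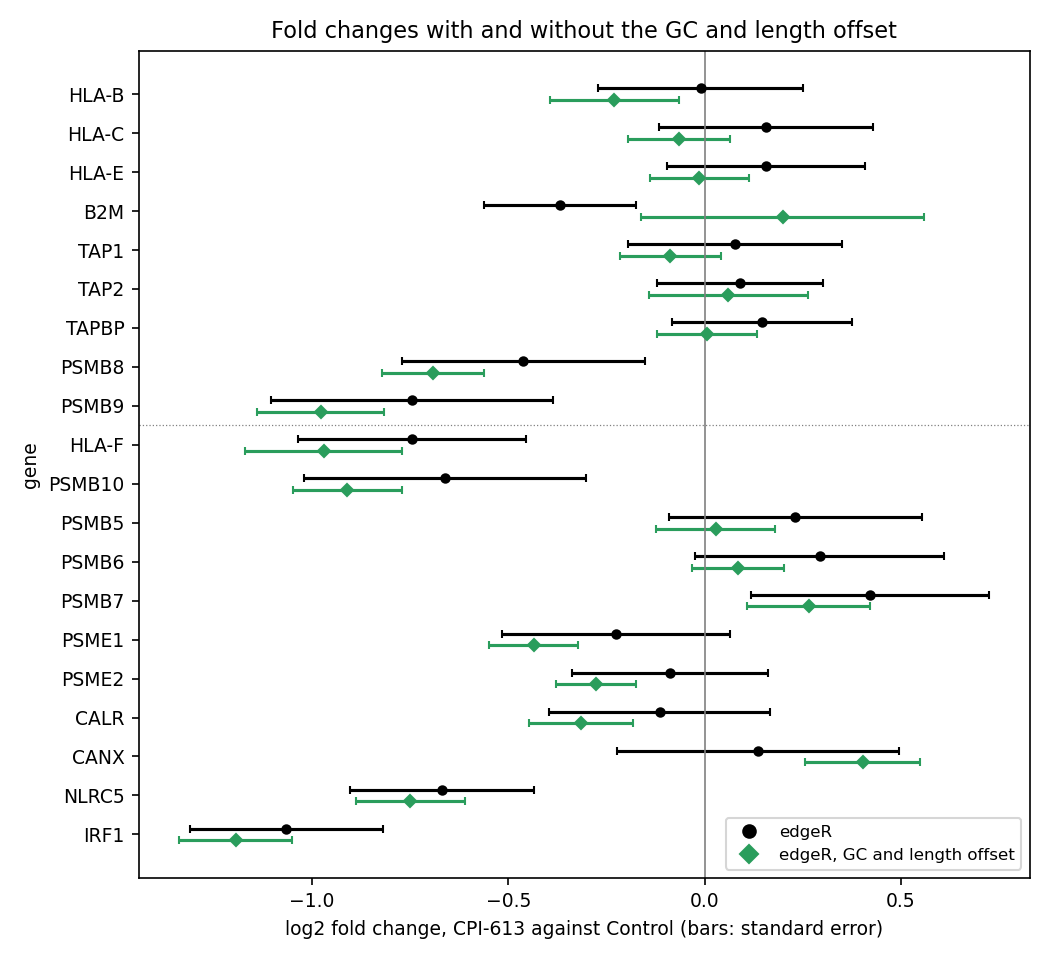
Log2 fold change, CPI-613 against Control (horizontal axis; bars are SE), of the 9 class I genes above the dotted line and of 11 other genes of the pathway below it, by edgeR with no offset (black circles) and with the GC and length offset (green diamonds). With the offset PSMB9 sits at -0.98 and PSMB8 at -0.69, while B2M moves from -0.37 to 0.20.

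The third inducible subunit, PSMB10 (MECL-1), lies outside the MHC region and was measured beside the 9 genes. It stood at 31.7, 40.4 and 35.1 CPM in Control and at 13.1, 20.6 and 34.0 CPM with CPI-613. The groups overlapped, since CPI-613 replicate 3 lay above Control replicate 1. Its log2 fold change was -0.66 ± 0.36 (SE; adjusted p = 0.508, edgeR), and after the offset -0.91 ± 0.14 (adjusted p = 0.00608, edgeR; 0.00608 to 0.939 over all alternatives). With no offset, leaving out CPI-613 replicate 1 gave -0.38 and leaving out replicate 3 gave -1.08. The constitutive subunits did not pass the test in either fit. PSMB5 stood at 141 to 199 CPM in Control and 119 to 279 CPM with CPI-613, PSMB6 at 148 to 194 CPM and 122 to 289 CPM, and PSMB7 at 256 to 361 CPM and 255 to 543 CPM. Their log2 fold changes were 0.23 ± 0.32, 0.29 ± 0.32 and 0.42 ± 0.30 (SE), and with the offset 0.028 ± 0.15, 0.084 ± 0.12 and 0.27 ± 0.16.

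Each inducible subunit was set against the constitutive subunit whose place it takes, within each library. PSMB8 to PSMB5 was 0.514, 0.423 and 0.513 in Control and 0.290, 0.308 and 0.289 with CPI-613. PSMB9 to PSMB6 was 0.275, 0.213 and 0.260 in Control and 0.111, 0.116 and 0.127 with CPI-613. PSMB10 to PSMB7 was 0.122, 0.112 and 0.137 in Control and 0.0515, 0.0547 and 0.0626 with CPI-613. In all 3 pairs every CPI-613 library lay below every Control library, CPI-613 replicate 3 included, and the CPI-613 libraries lay close together. The mean log2 ratios differed by -0.70, -1.08 and -1.14, each with p = 0.1 in the two-sided exact permutation test, the smallest this design can give (adjusted p = 0.167 over 5 ratios). After the offset the differences were -0.71, -1.07 and -1.18, again with no overlap. They moved by less than the spread between libraries when the processed values replaced the counts (-0.72, -1.08 and -1.14). Such a ratio within a library shows unequal change of the partners and does not say which of them changed.

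**Figure D3:**
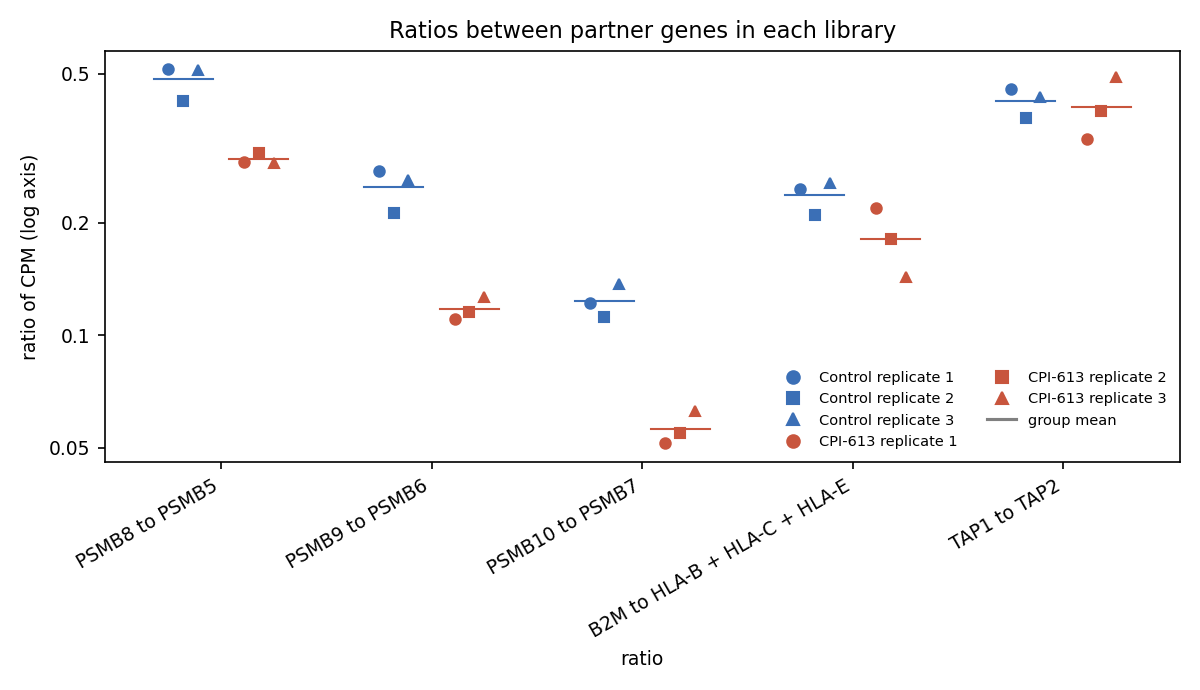
Ratio of CPM between partner genes (vertical log axis) for 5 pairs (horizontal axis) in the 3 Control (blue) and 3 CPI-613 libraries (red), with bars at the group means. The PSMB8, PSMB9 and PSMB10 ratios of all CPI-613 libraries sit below those of all Control libraries, for PSMB9 to PSMB6 at 0.111 to 0.127 against 0.213 to 0.275, whereas the B2M and TAP ratios overlap.

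PSMB9 and TAP1 are neighbours that start 488 bases apart and are read in opposite directions, and PSMB8, TAP1 and TAP2 lie beside them in the MHC class II region of chromosome 6. Their ratios were chosen after the values were seen and are given as a description only. PSMB9 to TAP1 was 0.342, 0.310 and 0.344 in Control and 0.160, 0.174 and 0.209 with CPI-613. PSMB8 to TAP1 was 0.610, 0.631 and 0.673 in Control and 0.410, 0.427 and 0.461 with CPI-613. Neither ratio overlapped between the groups, in counts or after the offset, so transcripts of neighbouring genes stood at different relative levels in the 2 groups. PSMB10 to PSMB9, on different chromosomes, overlapped, at 0.778, 0.976 and 0.879 in Control and 0.974, 0.909 and 0.930 with CPI-613. PSMB8 to PSMB9 did not overlap, at 1.784 to 2.036 in Control and 2.201 to 2.561 with CPI-613. The CPI-613 libraries also lay above Control in this ratio after the offset, so PSMB8 and PSMB9 did not change equally.

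The sequences just upstream of these start sites are shown because TAP1 and PSMB9 share the stretch between their start sites, and because PSMB8, PSMB9 and PSMB10 were called lower with the offset and B2M was not. They come from RefSeq (GRCh38.p14) and run 5′ to 3′ on the strand of the gene up to the base before the start site, in lower case. Capitals mark matches, on either strand, to the interferon-stimulated response element (ISRE, searched as GAAA, any 2 bases, GAAA), the gamma-activated site (GAS; TTC, any 3 bases, GAA) and the NF-kB element (GGGA, any base, TTTCC). TAP1 lies at chr6:32853705-32853844 on the minus strand, PSMB9 at chr6:32854052-32854191 on the plus strand, PSMB8 at chr6:32844680-32844819 on the minus strand, PSMB10 at chr16:67936851-67936990 on the minus strand and B2M at chr15:44711367-44711516 on the plus strand.
TAP1: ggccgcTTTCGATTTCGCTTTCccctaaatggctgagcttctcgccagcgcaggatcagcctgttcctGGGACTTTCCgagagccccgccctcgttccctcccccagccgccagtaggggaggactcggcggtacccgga
PSMB9: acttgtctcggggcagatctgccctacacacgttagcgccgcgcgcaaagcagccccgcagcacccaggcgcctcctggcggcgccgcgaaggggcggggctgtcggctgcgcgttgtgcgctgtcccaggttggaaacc
PSMB8: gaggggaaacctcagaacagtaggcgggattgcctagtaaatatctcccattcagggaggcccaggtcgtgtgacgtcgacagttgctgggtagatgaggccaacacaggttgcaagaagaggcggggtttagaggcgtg
PSMB10: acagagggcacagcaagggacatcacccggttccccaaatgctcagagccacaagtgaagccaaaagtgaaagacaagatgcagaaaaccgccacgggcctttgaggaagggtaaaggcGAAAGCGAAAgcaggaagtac
B2M: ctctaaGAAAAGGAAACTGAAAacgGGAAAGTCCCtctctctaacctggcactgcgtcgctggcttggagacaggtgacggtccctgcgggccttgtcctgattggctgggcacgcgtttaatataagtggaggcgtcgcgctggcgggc

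Over 250 bases upstream of each start site, the ISRE letters occurred in 3.02% of 35116 promoters in the table, the GAS letters in 6.57% and the NF-kB letters in 0.527%. B2M held a pair of overlapping ISRE matches at -144 to -129 and an NF-kB match at -125 to -116, counted from the start site. TAP1 held a pair of overlapping ISRE matches at -134 to -119 and an NF-kB match at -72 to -63, and a GAS match at -189 to -181 of its second start site. An ISRE match also stood in TAP2 at -58 to -49, in TAPBP as an overlapping pair at -20 to -5, and in PSMB10 at -21 to -12. PSMB8 held a GAS match at -65 to -57 of its second start site and none of the 3 patterns at its first. Its constitutive partner PSMB5 also held GAS matches, at -158 to -150 and -15 to -7 of its second start site. PSMB6 and PSMB7 had no promoter in the table. HLA-B, HLA-C and PSMB9 held none of the 3 patterns in this window, which says only that these letters are not there. The ISRE and NF-kB matches of TAP1 lie between the start sites of TAP1 and PSMB9, beyond the 250 bases searched for PSMB9. Of the 9 genes 8 had a promoter in the table, HLA-E being the exception.

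The deposited count table lists RefSeq transcripts of some of these genes several times, as numbered copies. Between 91.8% and 94.1% of PSMB9 counts, 83.4% and 83.9% of TAP1 counts and 86.0% and 86.2% of PSMB8 counts stood on such copies, so sums over all rows of a gene were used. PSMB8 has a pair of transcripts that differ at the start. The more abundant one took 80.4%, 77.8% and 81.9% of PSMB8 counts in Control and 72.8%, 75.0% and 75.5% with CPI-613, with no overlap. TAPBP differed as well: its second most abundant transcript took 25.6%, 18.8% and 21.5% of counts in Control and 29.7%, 34.6% and 28.7% with CPI-613. These shares were singled out after their values were seen, rest on the authors' estimate of how shared reads divide, and were not tested. In the annotation 20.6% of PSMB8 exon bases lie opposite the antisense gene PSMB8-AS1 and 139 bases lie opposite PSMB9. PSMB8-AS1 also lies opposite 9.49% of TAP1 exon bases. Whether reads were counted by strand is not given in the sources used here, and if not, reads of these partners could not be told apart. PSMB9 shares 5.66% of its exon bases with PSMB8-AS1 on the same strand, and 5.77% of its 100-base windows occur in another gene. Counting by strand would not separate such reads.

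Levels per transcript length, as FPKM in the processed matrix, put HLA-C first in Control at 919 ± 19.1 (SD, n = 3), followed by B2M at 795 ± 121 and HLA-B at 746 ± 80.9. TAPBP (145 ± 9.39), HLA-E (106 ± 2.77), PSMB8 (91.0 ± 3.09), TAP2 (86.6 ± 13.4), PSMB9 (56.0 ± 1.84) and TAP1 (54.6 ± 3.30) came after them. Neighbours in this order overlapped for B2M and HLA-B, PSMB8 and TAP2, and PSMB9 and TAP1, and did not overlap otherwise. With CPI-613, PSMB9 came last at 28.1 ± 10.6 FPKM, below TAP1 at 49.0 ± 12.1 FPKM, although their libraries overlapped. B2M stood there at 533 ± 27.8 FPKM, next to HLA-B at 630.4 ± 134 FPKM, again with overlap. In that group B2M did not overlap the next gene, TAPBP (136 ± 21.1 FPKM), and all other neighbours in the order overlapped.

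Within CPI-613, replicate 1 was the lowest and replicate 3 the highest library for 9 of 9 class I genes, where 45.0% of all genes tested showed that order. After the offset 7 of the 9 did, beside 36.2% of all genes. The SD of log2 CPM had a median over the 9 genes of 0.108 in Control and 0.480 with CPI-613, and of 0.129 and 0.164 after the offset. The 9 genes together took 0.405%, 0.379% and 0.418% of all counts in Control and 0.278%, 0.361% and 0.407% with CPI-613. The median SD of the CPI-613 libraries was thus smaller after the offset, but their largest SD among the 9 genes rose from 0.720, in PSMB9, to 0.847, in B2M.

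**Figure D4:**
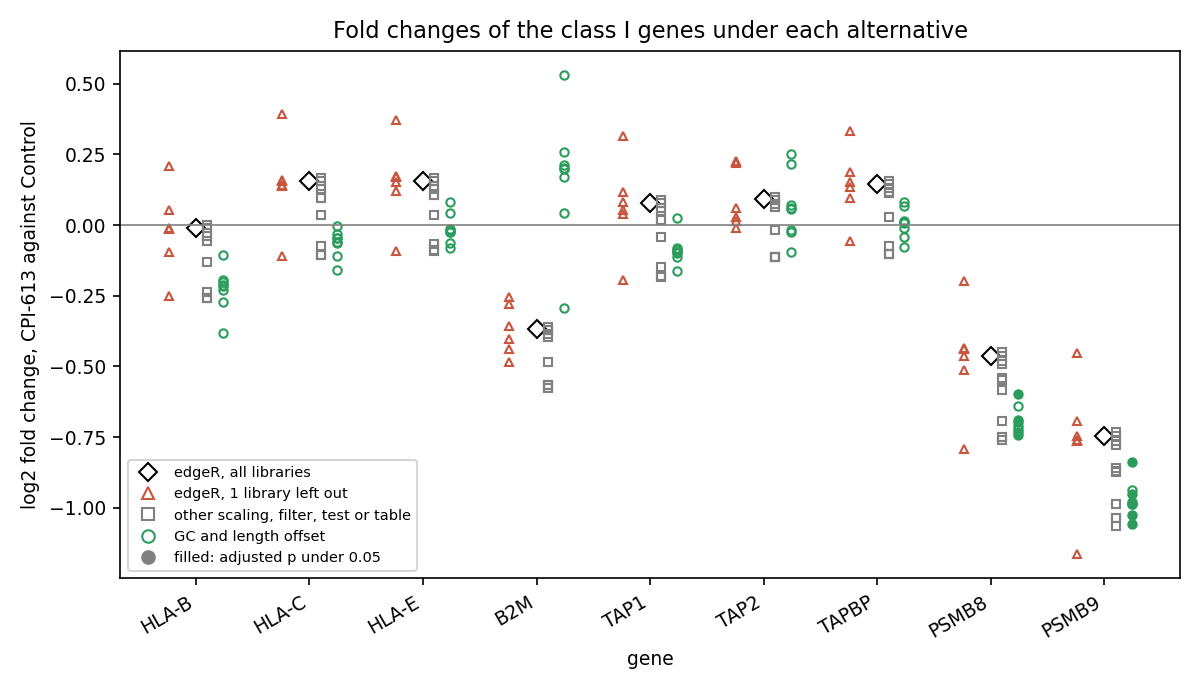
Log2 fold change, CPI-613 against Control (vertical axis), of each class I gene (horizontal axis) by edgeR with all libraries (black diamonds), with 1 library left out (red triangles), under other scalings, filters, tests or the processed table (grey squares), and with the GC and length offset, all libraries or 1 left out (green circles). Filled symbols mark an adjusted p under 0.05, which occurred for PSMB8 and PSMB9 with the offset, and B2M crosses 0 between the fits.

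Other genes that serve the class I pathway were taken from lists of peptide loading, peptide trimming, proteasome and class I-like genes. Of 4 tested heavy chains outside the 9 genes none was called, where 3.18% of all genes tested were. With the offset 1 of the 4, HLA-F, was called lower, where 5% of all genes were called lower and 6.61% higher. HLA-F, a heavy chain with restricted expression, stood at 49.4, 40.5 and 54.8 CPM in Control and at 20.1, 27.2 and 39.0 CPM with CPI-613, with no overlap. Its log2 fold change was -0.74 ± 0.29 (SE; adjusted p = 0.297, edgeR) and -0.97 with the offset (adjusted p = 0.0209, edgeR; 0.00527 to 0.831 over all alternatives). MR1, which presents vitamin metabolites, had a log2 fold change of -0.41 ± 0.25 (adjusted p = 0.570, edgeR) and of -0.16 ± 0.32 with the offset.

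Of 6 genes for endoplasmic reticulum chaperones and peptide trimming none was called with no offset. With the offset TAPBPL alone, a tapasin relative, was called lower, at -0.67 ± 0.16 (-0.48 ± 0.26 before). Over all genes tested 3.18% were called with no offset, and 5% lower and 6.61% higher with it. These shares stand beside each list of this paragraph. The chaperones CALR (calreticulin) and CANX (calnexin) had log2 fold changes of -0.11 ± 0.28 and 0.14 ± 0.36 (adjusted p = 0.887 and 0.895, edgeR), the sign of CANX turning when scaled by total count only. With the offset they were -0.32 ± 0.13 and 0.40 ± 0.15, not called, although no CPI-613 library then overlapped Control. ERAP2, a trimming enzyme, had the lowest log2 fold change of the 6, at -0.98 ± 0.59 and, with the offset, -0.76 ± 0.23 (adjusted p = 0.564 and 0.0774, edgeR). PDIA3 (0.25 ± 0.17, and 0.50 ± 0.24 with the offset) was not called either. PDIA3 alone of the 6 lay above Control in every CPI-613 library, where 11.8% of all genes did, and 0 lay below, where 9.17% did. None of 6 genes for PSMB10, proteasome activators and assembly was called with no offset and 2 were called lower with it, PSMB10 and the activator subunit PSME1 (-0.43 ± 0.11, and -0.23 ± 0.29 before). Its partner PSME2 had a log2 fold change of -0.088 ± 0.25 (-0.28 ± 0.10 with the offset) and the nuclear activator PSME3 one of 0.12 ± 0.28 (0.061 ± 0.24). Among 11 other subunits of the 20S core, PSMB4 (0.20 ± 0.27, and 0.031 ± 0.11 with the offset) and PSMA7 (0.21 ± 0.25 and 0.052 ± 0.11) included, none was called in either fit. Of the 11, 3 lay below Control in every CPI-613 library, where 9.17% of all genes did, and 0 above, where 11.8% did. The 3 were PSMA2 (-0.37 ± 0.16, and 0.094 ± 0.31 with the offset), PSMA3 (-0.48 ± 0.19 and -0.14 ± 0.17) and PSMA4 (-0.48 ± 0.16 and -0.12 ± 0.28). With the offset these 3 overlapped Control. Of 6 cytosolic peptidases none was called with no offset. NPEPPS, an aminopeptidase, was called lower with it, at -0.66 ± 0.12 (-0.76 ± 0.26 before), and NRDC, an endopeptidase, was not, at -0.14 ± 0.20 (-0.18 ± 0.34 before). TAPBPL, ERAP2, PDIA3, PSME1, PSMA2, PSMA3 and PSMA4 were singled out after their values were seen.

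Of the factors that drive class I transcription, NLRC5, IRF1, IRF2, RFX5 and CIITA, 5 of 12, lay below Control in every CPI-613 library, where 9.17% of all genes did. The 12 did not share a direction, since 6 had log2 fold changes below 0 with no offset and 7 with it. RELA (0.50 ± 0.23, and 0.36 ± 0.11 with the offset), RFXANK (0.35 ± 0.30 and 0.14 ± 0.11) and RFXAP (0.28 ± 0.57 and 0.31 ± 0.43) lay above 0. None of these was called in either fit. NLRC5, the class I transactivator, stood at 27.04, 27.3 and 27.3 CPM in Control and at 13.6, 18.7 and 19.1 CPM with CPI-613, with no overlap. Its log2 fold change was -0.67 ± 0.23 (SE; adjusted p = 0.233, edgeR) and -0.75 ± 0.14 with the offset (adjusted p = 0.0129, edgeR; 0.0129 to 0.725 over all alternatives). IRF1, which binds ISRE sequences, stood at 87.4, 85.0 and 76.5 CPM in Control and at 29.4, 38.0 and 51.5 CPM with CPI-613, again with no overlap. Its log2 fold change was -1.07 ± 0.25 (adjusted p = 0.0758, edgeR) and -1.20 ± 0.14 with the offset (adjusted p = 0.00237, edgeR; 0.00144 to 0.352 over all alternatives), and DESeq2 called it with no offset (adjusted p = 0.00501).

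CIITA, the class II transactivator, which can also act on class I promoters, was called lower. It stood at 4.62, 2.64 and 3.51 CPM in Control and at 0.356, 0.922 and 0.465 CPM with CPI-613, a log2 fold change of -2.61 ± 0.44 (SE, and -2.65 ± 0.38 with the offset; adjusted p = 0.0269 with no offset, edgeR), a call that was lost without any 1 Control library (0.0540 to 0.148) or without CPI-613 replicate 2 (0.0848). It was 1 of 12 transactivators called lower with no offset, where 1.24% of all genes were. With the offset NLRC5, IRF1, RFX5 and CIITA, 4 of the 12, were called lower and none higher, where 5% and 6.61% of all genes were. IRF2, which competes with IRF1 for its sites, was not called, at -0.43 ± 0.20 and, with the offset, -0.37 ± 0.13. RFX5, a subunit of the complex through which NLRC5 and CIITA act, stood at 62.3 to 65.1 CPM in Control and 45.4 to 49.8 CPM with CPI-613 (-0.40 ± 0.17, and -0.47 ± 0.11 with the offset). Of 8 listed MHC class II genes 4 passed the filter on low counts, and none was called with no offset. HLA-DRB1, which had few counts, was called lower with it, at 1.25 to 1.38 CPM in Control and 0.285 to 0.852 CPM with CPI-613 (-1.38 ± 0.31, and -1.17 ± 0.42 with no offset). HLA-DMA (-0.91 ± 0.29, and -0.73 ± 0.34 with no offset), CD74 (-0.32 ± 0.11, and -0.11 ± 0.27 with no offset) and CTSS (-0.14 ± 0.45, and -0.82 ± 0.25 with no offset) were not called. Among the genes not tested, HLA-DRA reached at most 0.157 CPM. Of 10 interferon receptor, kinase and feedback genes none was called with no offset, and with it the receptor chain IFNGR1 was called lower (-0.71 ± 0.15, and -1.02 ± 0.40 with no offset). Its partner chain IFNGR2 was not called, at 0.54 ± 0.25 and, with the offset, 0.36 ± 0.12. In the lists where edgeR called no gene with no offset, an unadjusted p under 0.05 was found for 1 of 4 heavy chains, 2 of 11 core subunits, 1 of 6 peptidases, 1 of 10 genes of the interferon list and 2 of 4 class II genes, beside 14.4% of all genes tested. In these lists DESeq2 called 1 gene, CTSS (adjusted p = 0.0456), and limma-voom called none. The kinases TYK2 and JAK1 had log2 fold changes of 0.27 ± 0.18 and 0.28 ± 0.40 with no offset, and of 0.17 ± 0.11 and 0.29 ± 0.27 with it. IRF2, RFX5, RELA, RFXANK, RFXAP, HLA-DRB1, IFNGR1 and IFNGR2 were singled out after their values were seen.

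**Figure D5:**
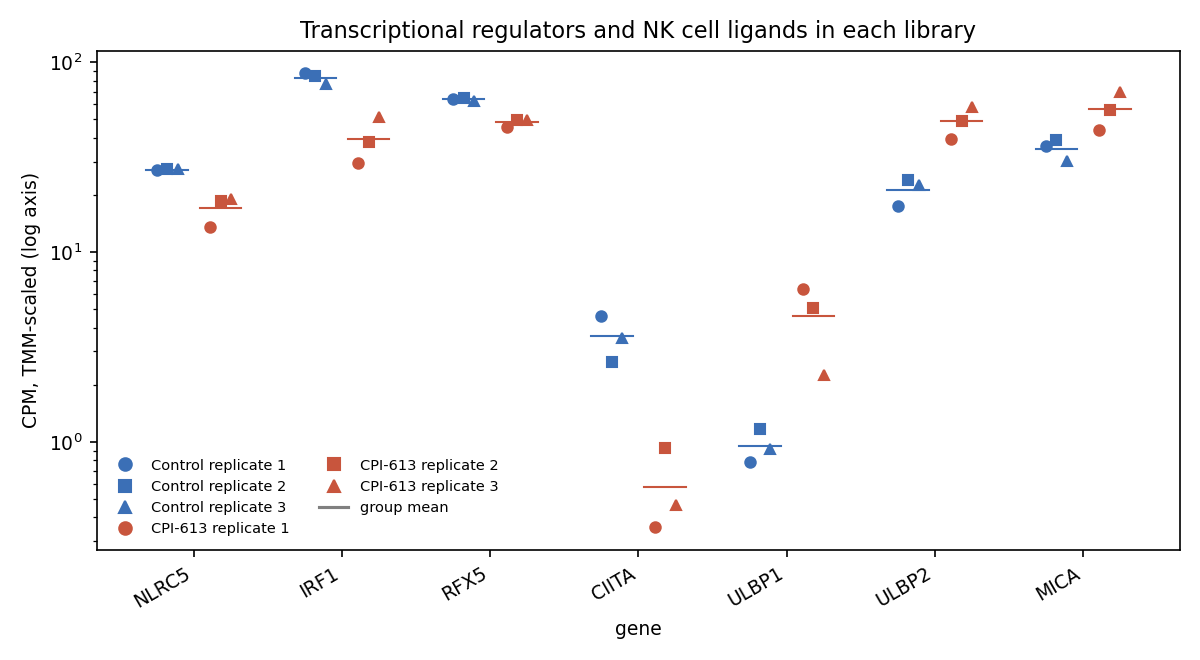
CPM (vertical log axis) of 4 transcriptional regulators of MHC genes and of 3 NK cell ligand genes (horizontal axis) in the 3 Control (blue) and 3 CPI-613 libraries (red), with bars at the group means. IRF1 sits at 76.5 to 87.4 CPM in Control and 29.4 to 51.5 CPM with CPI-613. ULBP1, ULBP2 and MICA lie higher in every CPI-613 library, as do 11.8% of all genes tested.

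Cells with altered class I surface levels are read by NK cells, and ligands of the NKG2D receptor were measured for that reason. ULBP1 rose from 0.784, 1.17 and 0.916 CPM in Control to 6.42, 5.07 and 2.25 CPM with CPI-613, a log2 fold change of 2.25 ± 0.45 (SE, and 2.41 ± 0.30 with the offset; adjusted p = 0.0480 with no offset, edgeR; 0.00150 to 0.249 over all alternatives). The call was lost under the other scalings (0.0554 to 0.0872), by limma-voom (0.0662) and without any 1 Control library or CPI-613 replicate 2 (0.138 to 0.249). ULBP2 stood at 17.4, 24.1 and 22.6 CPM in Control and 39.6, 48.9 and 58.2 CPM with CPI-613 (1.19 ± 0.25, and 1.15 ± 0.17 with the offset; adjusted p = 0.0529 with no offset, edgeR), and MICA at 30.2 to 38.8 CPM and 44.2 to 70.0 CPM (0.70 ± 0.24, and 0.54 ± 0.12 with the offset; adjusted p = 0.226 with no offset, edgeR). Of the 8 NK ligand genes tested 1 was called higher with no offset, where 1.94% of all genes were, and 3 with it, ULBP1, ULBP2 and MICA, where 6.61% of all genes were, and none was called lower. Of the 8 genes, 4 lay above Control in every CPI-613 library, where 11.8% of all genes did. Only RAET1E lay below Control in every CPI-613 library, where 9.17% of all genes did. It stood at 1.10, 1.24 and 1.22 CPM in Control and 1.07, 0.769 and 0.620 CPM with CPI-613 (-0.53 ± 0.33, not called). ULBP2, MICA and RAET1E were singled out after their values were seen. None of 7 genes of class I turnover was called in either fit. Of these, TMEM127 and SUSD6, which lower surface class I, had log2 fold changes of 0.33 ± 0.24 and 0.33 ± 0.20, and of 0.24 ± 0.17 and 0.24 ± 0.13 with the offset.

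The mean of the 9 genes' centred log2 CPM was 0.034, 0.101 and 0.099 in Control and -0.57, -0.019 and 0.35 with CPI-613. Among 10781 genes outside the lists whose log2 CPM averaged at least 2, the genes most like this pattern over the 6 libraries were NDN, SH3BP1, RXRA, ATP6V0E1 and HDAC1, with Pearson correlations of 0.998, 0.997, 0.995, 0.994 and 0.992. With 6 libraries that share depth and base composition trends, such values describe likeness only. None of these 5 genes was called, their log2 fold changes running from -0.18 for HDAC1 to -0.12 for ATP6V0E1.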

How the data were processed

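Per the labels' protocols, TRIzol-extracted RNA of HN12 cells was made into 6 libraries and read on a DNBSEQ platform. Among the tools that the submitters' processing notes list, with no roles, are STAR 2.5 and HTSeq, and hg38 is the genome build. Counting tool, annotation and strand setting are each not given in the sources used here. What the authors deposited is a table of estimated counts per transcript and a matrix per gene with no unit named. The deposited matrix was taken as FPKM, since in 1430 genes with 1 transcript and at least 100 counts the worth of 1 count followed the inverse of the library total within 0.59%.

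Transcripts with a date in place of a value, 27 in number and none in a gene of the lists, were left out. Counts were summed per gene (53 genes had no symbol), rounded, filtered with filterByExpr (at least 10 counts in enough libraries and 15 in all), given TMM scaling and put through the two-sided quasi-likelihood test of edgeR 4.0.16, with group as the one covariate and Benjamini-Hochberg adjustment over 12671 genes at 0.05. SE is the log2 fold change over the square root of F. For the GC and length offset, natural splines with 5 degrees of freedom each were fitted per library on GC content and log2 length of the longest protein-coding GENCODE 29 transcript (known for 99.45% of genes). DESeq2 1.42.0, limma 3.58.1 on log2(FPKM + 1), other scalings and filters, a replicate block and leaving out each library were the alternatives, the last combined with the offset after the data were seen. The scripts were tested on simulated data. Depth was 11531942 to 15486513 counts per library, and the number of libraries, 3 a group, limits precision.

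The genes and lists were chosen with earlier results of these data known. Named were the 9 genes, PSMB5, PSMB6, PSMB7, PSMB10, NLRC5 and IRF1 (1 further gene is not reported here), up to 4 called genes of each list with the largest changes or its 2 most abundant where none was called, and the 5 genes most like the mean of the 9. Gene coordinates and promoters come from RefSeq's GRCh38.p14 tables.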

Additional observations from a re-analysis of the deposited data

How the results depend on the processing

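The number of calls over all genes rested on single libraries and on the GC and length offset. With no offset edgeR called 246 genes higher and 157 lower, and without Control replicate 1, Control replicate 3 or CPI-613 replicate 2 it called 0, 0 and 7 higher and none lower, while without CPI-613 replicate 1 it called 467 and 438. DESeq2 called 473 and 405, an adjusted p of 0.01 left 54 and 16, the total count as scaling gave 259 lower, and limma on unfiltered log2(FPKM + 1) 287 lower. The offset gave 838 and 633. Over all fits with 1 library left out, with or without the offset, the counts ran from 0 to 1481 higher and from 0 to 1157 lower, and the class I genes called lower from 0 to 2. No class I gene was called higher in any fit.

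The deviations of same-numbered libraries from their group means correlated at 0.457, -0.096 and -0.608, beside -0.661 to 0.675 for libraries of different number. Since the libraries also differed by base composition, these correlations cannot decide whether same-numbered libraries shared a culture or day. With the replicate block edgeR called 109 genes higher and 82 lower and no class I gene, and with the block and the offset 484 higher and 405 lower, with PSMB8 and PSMB9, 2 of the 9, called lower (adjusted p = 0.0469 and 0.0311). CIITA and ULBP1 lost their calls under the block with no offset (adjusted p = 0.0673 and 0.0898).

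Several log2 fold changes near 0 changed sign, and the cause was not tested. With the offset the values were -0.065 for HLA-C, -0.013 for HLA-E, 0.199 for B2M, -0.087 for TAP1 and 0.052 for ATP6V0E1, and the log2 ratio of B2M to the heavy chains 0.156. With the offset and the block they were -0.059 for HLA-C, -0.017 for HLA-E, 0.043 for B2M and -0.096 for TAP1. Scaling by total count, which moved the median of all genes from 0.020 to -0.169, gave -0.073 for HLA-C, -0.068 for HLA-E, -0.149 for TAP1, -0.113 for TAP2, -0.075 for TAPBP, -0.019 for CANX, -0.090 for PSME3, -0.018 for PSMB4 and -0.0028 for PSMA7. Upper quartile scaling gave -0.042 for TAP1 and -0.019 for TAP2, and no filter gave 0.0013 for HLA-B. On log2(FPKM + 1), filtered or not, the values were -0.106 for HLA-C, -0.090 for HLA-E, -0.181 for TAP1, -0.112 for TAP2, -0.101 for TAPBP, -0.162 for CANX, -0.086 for PSME3, -0.042 for PSMB4, -0.0091 for PSMA7 and -0.042 for PSMB5. On log2(FPKM + 0.1) they were -0.106, -0.091, -0.185, -0.113, -0.102, -0.163, -0.087, -0.042, -0.0091 and -0.042 in the same order, and -0.0057 for JAK1.

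With 1 library left out, with or without the offset, log2 fold changes ran from -0.382 to 0.211 for HLA-B, -0.159 to 0.393 for HLA-C, -0.093 to 0.374 for HLA-E, -0.484 to 0.532 for B2M, -0.193 to 0.317 for TAP1, -0.094 to 0.253 for TAP2 and -0.078 to 0.334 for TAPBP. They ran from -0.387 to 0.127 for CALR, -0.088 to 0.487 for CANX, -0.402 to 0.119 for CD74, -0.973 to 0.254 for CTSS, -0.554 to 0.164 for MR1, -0.0257 to 0.616 for JAK1 and -0.458 to 0.127 for NRDC. The ranges were -0.0054 to 0.385 for PSMA7, -0.069 to 0.412 for PSMB4, -0.130 to 0.490 for PSMB5, -0.051 to 0.560 for PSMB6, -0.565 to 0.0055 for PSME1, -0.332 to 0.104 for PSME2 and -0.168 to 0.325 for PSME3. For the genes of like pattern they were -0.449 to 0.126 for NDN, -0.469 to 0.104 for SH3BP1, -0.499 to 0.085 for RXRA, -0.332 to 0.304 for ATP6V0E1 and -0.466 to 0.030 for HDAC1. Those of PSMB8, PSMB9 and PSMB10 stayed below 0 but ran widely with no offset, from -0.794 to -0.197, -1.17 to -0.451 and -1.08 to -0.382. The log2 ratio of TAP1 to TAP2 ran from -0.215 to 0.064. The 3 ratios of inducible to constitutive subunits kept their sign under every alternative run for them. With 3 libraries a group and unequal base composition, differences of the size seen for B2M and the heavy chains were not resolved.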
